A study of Mus musculus with 6 samples.

Results

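The outer dense fibers and the fibrous sheath pack the sperm tail around its microtubule core, and 10 genes for their structural and docking proteins were followed in mouse testis. They were chosen by gene name and function, with earlier results of these data known, and all 10 are among the 26743 genes of the deposited count table. Odf1, Odf2, Odf3 and Odf4 belong to the outer dense fibers. Akap3 and Akap4 encode scaffolds of the fibrous sheath. Ropn1, Ropn1l, Spa17 and Cabyr encode docking proteins that bind such scaffolds. RNA-seq was performed on total RNA of whole testis from 3 WT and 3 Trf2-/- mice, all at postnatal day 21. Trf2, listed under the symbol Tbpl1, encodes a relative of the TATA-binding protein, and the comparison asks how its loss changes gene expression in the testis. The labels give neither the strain nor the design of the inactivated allele. The Trf2-/- genotype concerns the whole animal, so germ cells and supporting cells both carried the inactivated allele.

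Outer dense fibers are stiff cords that run beside the microtubule doublets of the tail and protect it from shear. The fibrous sheath surrounds them in the principal piece, where it holds protein kinase A and glycolytic enzymes in place. Anchoring proteins of the sheath bind an amphipathic helix to a docking domain, which is found on the regulatory subunits of the kinase and also on ropporin-type proteins. Both structures are built after meiosis, in spermatids, although some of the genes are first transcribed in spermatocytes.

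Counts assigned to genes ran from 21582123 to 29859347 per WT mouse and from 15187062 to 24530489 per Trf2-/- mouse, the lowest being Trf2-/- mouse 3. Levels are given as CPM, the counts scaled to a common library size with TMM factors, and as CPM per kilobase of the deposited gene length where genes are compared with each other. Tbpl1 itself stood at 294.6 ± 12.5 CPM (SD, n = 3) in WT and 60.9 ± 4.59 CPM in Trf2-/- testis, a log2 fold change of -2.27 (SE 0.06) with an adjusted p of 1.18e-06 in edgeR's quasi-likelihood test. Its annotated span overlaps that of Slc2a12. All differences below are Trf2-/- minus WT from the same test, with Benjamini-Hochberg adjustment over the 16924 genes that passed the filter on low counts. A gene was called down-regulated or up-regulated at an adjusted p under 0.05 and a change of at least 2-fold.

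The promoters show how unlike the members are before any level is considered. RefSeq windows of 250 bases before the start (GRCm38.p6) were found for 8 members, with 13 starts in all. Odf1 and Cabyr had no entry. The windows of Akap3 (chr6:126852848-126853097, plus strand) and of the first of 2 Akap4 starts (chrX:7067265-7067514, plus strand) are shown because they share a run of 20 bases, given in capitals. Those of Ropn1 (chr16:34650961-34651210, plus strand) and Ropn1l (chr15:31453690-31453939, minus strand) are shown because these related genes differ in CG pairs, given in capitals. All read 5′ to 3′ and end at the base before the start.
Akap3: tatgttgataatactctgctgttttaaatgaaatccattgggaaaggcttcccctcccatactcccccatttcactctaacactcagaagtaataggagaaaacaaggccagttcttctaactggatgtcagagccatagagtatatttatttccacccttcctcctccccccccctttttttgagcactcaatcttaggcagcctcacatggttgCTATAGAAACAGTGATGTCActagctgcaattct
Akap4: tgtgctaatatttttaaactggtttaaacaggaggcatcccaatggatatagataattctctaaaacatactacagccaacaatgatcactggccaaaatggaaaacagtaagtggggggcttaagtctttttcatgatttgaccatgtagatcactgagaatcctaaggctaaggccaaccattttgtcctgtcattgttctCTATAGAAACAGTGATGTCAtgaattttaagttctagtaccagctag
Ropn1: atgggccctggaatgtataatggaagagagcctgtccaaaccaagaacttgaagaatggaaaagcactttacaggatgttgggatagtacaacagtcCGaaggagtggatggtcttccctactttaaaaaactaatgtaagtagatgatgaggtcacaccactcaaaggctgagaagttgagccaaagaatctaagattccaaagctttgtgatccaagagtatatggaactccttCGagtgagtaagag
Ropn1l: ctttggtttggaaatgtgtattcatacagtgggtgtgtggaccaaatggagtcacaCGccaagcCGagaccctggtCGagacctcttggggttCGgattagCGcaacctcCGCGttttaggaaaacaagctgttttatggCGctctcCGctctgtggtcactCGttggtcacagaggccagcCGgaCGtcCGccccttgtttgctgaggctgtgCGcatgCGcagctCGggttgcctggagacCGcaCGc

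The run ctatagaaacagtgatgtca lay at positions -34 to -15 of Akap3 and -47 to -28 of Akap4, counted from the start. Of all 32851 windows it occurred only in these 2, from which it was taken. Among the 70 pairs of windows from different members, the next longest shared run had 11 bases and the median was 8. Its end, TGATGTCA, was looked for after the windows had been read. On either strand it was in 2.93% of all windows, and among the members in these Akap3 and Akap4 windows alone. TATAAA was in 12.4% of all windows on either strand, and TGACGTCA, which reads the same on both strands, was in 1.55%. No member window held either of them. Ropn1 had 2 CG pairs and a GC content of 42.0%, while Ropn1l had 18 and 57.6%. The other windows ranged from 0 CG pairs in Akap3 and at both Akap4 starts to between 22 and 35 at the 4 Odf2 starts. Over all windows the median was 6 CG pairs, with a median GC content of 52.4%. These letters describe the windows only.

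In Trf2-/- testis, 5 of the 10 members were down-regulated, namely Akap3, Akap4, Odf1, Odf3 and Ropn1, beside 4.3% of all genes tested. A further 4, Odf2, Odf4, Ropn1l and Spa17, were lower at an adjusted p under 0.05 by less than 2-fold, which made 9 lower in all beside 20.2% of all genes. In those 9, every Trf2-/- mouse was below every WT mouse, a separation seen in 26.8% of all genes. Cabyr did not pass the test. The members' median log2 fold change was -0.90, and their range was from -4.01 for Ropn1 to 0.13 for Cabyr, beside a median of 0.04 over all genes tested. None of the members was up-regulated, beside 0.609% of all genes, and 0 rose at an unadjusted p under 0.05 or under the DESeq2 Wald test. All 10 members passed the filter on low counts, Akap4, Odf1, Odf3 and Ropn1 through their WT libraries alone, so that a difference upwards was not open to these 4. In whole testis, fewer cells of a type and less RNA per cell cannot be told apart.

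**Figure D1:**
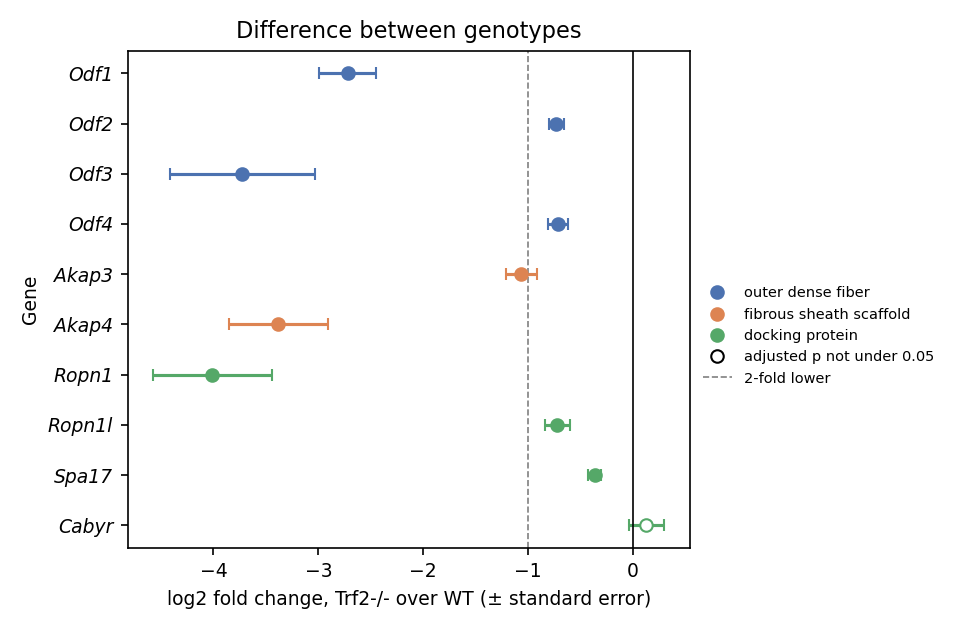
Log2 fold change of each member, Trf2-/- minus WT, from edgeR, with bars of 1 standard error, colours for the roles and an open circle where the adjusted p was not under 0.05. The points run from -4.01 for Ropn1 to 0.13 for Cabyr, and 5 members lie beyond the 2-fold limit.

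Among the outer dense fiber genes, 2 of 4 were down-regulated and all 4 were lower, with a median log2 fold change of -1.73. Odf1, the main cysteine-rich protein of the fibers, lies at chr15:38148958-38156490 on the plus strand (ENSMUSG00000061923; NCBIM37, as are all gene positions here). Odf1 reads numbered 67, 62 and 50 in WT and 9, 11 and 3 in Trf2-/- testes. The genotypes were far apart, and no WT mouse had under 50 counts. Its level was 2.37 ± 0.0323 CPM in WT and 0.339 ± 0.142 CPM in Trf2-/- testis (SD, n = 3 each), 6.98-fold lower by the means. The log2 fold change was -2.72 (SE 0.27) with an adjusted p of 0.000425 in edgeR's quasi-likelihood test. The ratio of the pooled counts was 6.62-fold, with a 95% exact interval of 4.28 to 10.7 that covers counting error only.

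Odf3, another protein of the fibers, lies at chr7:148033704-148036917 on the plus strand (ENSMUSG00000025482). It was the scarcest member, with 14, 12 and 10 counts in WT and 0, 2 and 0 in Trf2-/- mice. WT mice were closely grouped, and only Trf2-/- mouse 2 had any count. Pooled counts gave a 15.3-fold lower level, with an exact interval of 3.94 to 131, so the size of the difference is poorly fixed. The fitted log2 fold change was -3.72 (SE 0.69, adjusted p 0.00399 in edgeR's test), and it was -6.49 without Trf2-/- mouse 2 and -3.11 without Trf2-/- mouse 1. Without Trf2-/- mouse 2 no Trf2-/- count was left, so the size of -6.49 is not fixed by the counts.

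Odf2 and Odf4 were abundant and lost less. Odf2, a coiled-coil protein of the fibers that is also part of the centrosome, lies at chr2:29744741-29787266 on the plus strand (ENSMUSG00000026790) and has 28 annotated transcripts. Its level was 1055, 1026 and 1041 CPM in WT and 647, 681 and 551 CPM in Trf2-/- mice. All Trf2-/- values were thus between 53.0% and 65.4% of the WT mean. In log2 terms the fold change was -0.73 (SE 0.07, adjusted p 0.000425 in edgeR's test). A U6 RNA gene lies on the other strand within its span. The table has 1 value per gene, so its fiber and centrosome forms were not separated.

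Odf4, a membrane-associated protein of the tail, lies at chr11:68735337-68740583 on the minus strand (ENSMUSG00000032921). Levels were 126 ± 6.25 CPM in WT and 76.3 ± 11.1 CPM in Trf2-/- testis. In order of mouse number, the Trf2-/- mice had 64.6%, 66.6% and 50.4% of the WT mean, all below the WT mice. Its log2 fold change was -0.72 (SE 0.10, adjusted p 0.00101 in edgeR's test), next to that of Odf2.

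**Figure D2:**
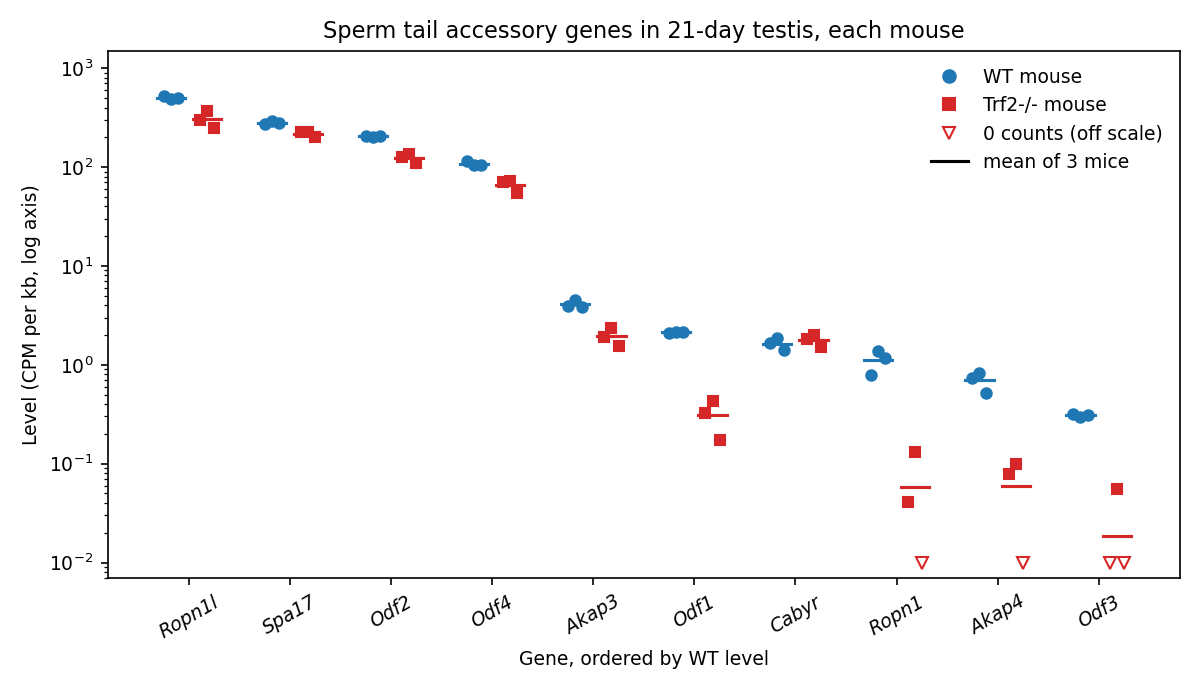
Level of each member in each mouse, as CPM per kilobase on a log axis, with circles for WT mice, squares for Trf2-/- mice, open triangles for mice with 0 counts and lines for the mean of 3 mice. Genotypes separate in 9 members and overlap in Cabyr, whose means lie at 1.63 in WT and 1.78 in Trf2-/- testis.

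Both fibrous sheath scaffolds were down-regulated, by different amounts. Akap4, the X-linked major protein of the sheath, lies at chrX:6644645-6655735 on the plus strand (ENSMUSG00000050089). It had 64, 66 and 33 counts in WT and 6, 7 and 0 in Trf2-/- mice. WT mouse 3 was the lowest of its genotype and was still well above every Trf2-/- mouse. Its log2 fold change was -3.38 (SE 0.47, adjusted p 0.00113 in edgeR's test). By pooled counts the level was 10.7-fold lower, with an exact interval of 6.06 to 20.5.

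Akap3, the scaffold laid down earlier in sheath assembly, lies at chr6:126803116-126824325 on the plus strand (ENSMUSG00000030344). Levels were 12.4, 14.4 and 12.1 CPM in WT and 6.07, 7.45 and 4.93 CPM in Trf2-/- mice. Each Trf2-/- mouse had between 38.0% and 57.5% of the WT mean. The log2 fold change of -1.06 (SE 0.15, adjusted p 0.00127 in edgeR's test) was close to the 2-fold limit. It was -0.97 when scaled by library size alone, -0.99 without WT mouse 2 and -0.94 without Trf2-/- mouse 3, which ends the down-regulated call in each case while the adjusted p stayed under 0.05.

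Of the docking proteins, 1 of 4 was down-regulated, 3 of 4 were lower, and the median log2 fold change was -0.55. Ropn1 encodes ropporin and lies at chr16:34650007-34678704 on the plus strand (ENSMUSG00000022832). Counts were 22, 35 and 24 in WT and 1, 3 and 0 in Trf2-/- mice. The gene was thus nearly without reads in Trf2-/- testis, and pooled counts gave a 17.2-fold lower level with an exact interval of 6.47 to 64.7. Its fitted log2 fold change, the lowest of the members, was -4.01 (SE 0.56, adjusted p 0.0012 in edgeR's test), and -5.20 without Trf2-/- mouse 2.

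Ropn1l, the ropporin-like relative, was the most abundant member per length. It lies at chr15:31370965-31383444 on the minus strand (ENSMUSG00000022236), with the pseudogene Gm6361 on the same strand inside its span. Levels were 474, 446 and 454 CPM in WT and 272, 336 and 224 CPM in Trf2-/- mice. The genotypes did not overlap, although the Trf2-/- mice were spread from 48.9% to 73.3% of the WT mean. Its log2 fold change was -0.72 (SE 0.12, adjusted p 0.00239 in edgeR's test).

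Spa17, a sperm surface and sheath protein that binds anchoring proteins, lies at chr9:37410886-37421199 on the minus strand (ENSMUSG00000001948). It had 158, 167 and 161 CPM in WT and 130, 131 and 115 CPM in Trf2-/- mice. Among the lower members its difference was the smallest, with a log2 fold change of -0.37 (SE 0.06, adjusted p 0.00197 in edgeR's test).

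Cabyr, a calcium-binding protein that is phosphorylated on tyrosine during capacitation, lies at chr18:12899833-12913655 on the plus strand (ENSMUSG00000024430), with the pseudogene Gm7599 on the opposite strand inside its span. Counts were 102, 105 and 63 in WT and 100, 100 and 52 in Trf2-/- mice. Levels of both genotypes overlapped, at 3.53 ± 0.499 and 3.84 ± 0.511 CPM. The log2 fold change was 0.13 (SE 0.17, adjusted p 0.59 in edgeR's test), and the pooled level in Trf2-/- testis was 110% of WT with an exact interval of 92.1% to 131%.

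**Figure D3:**
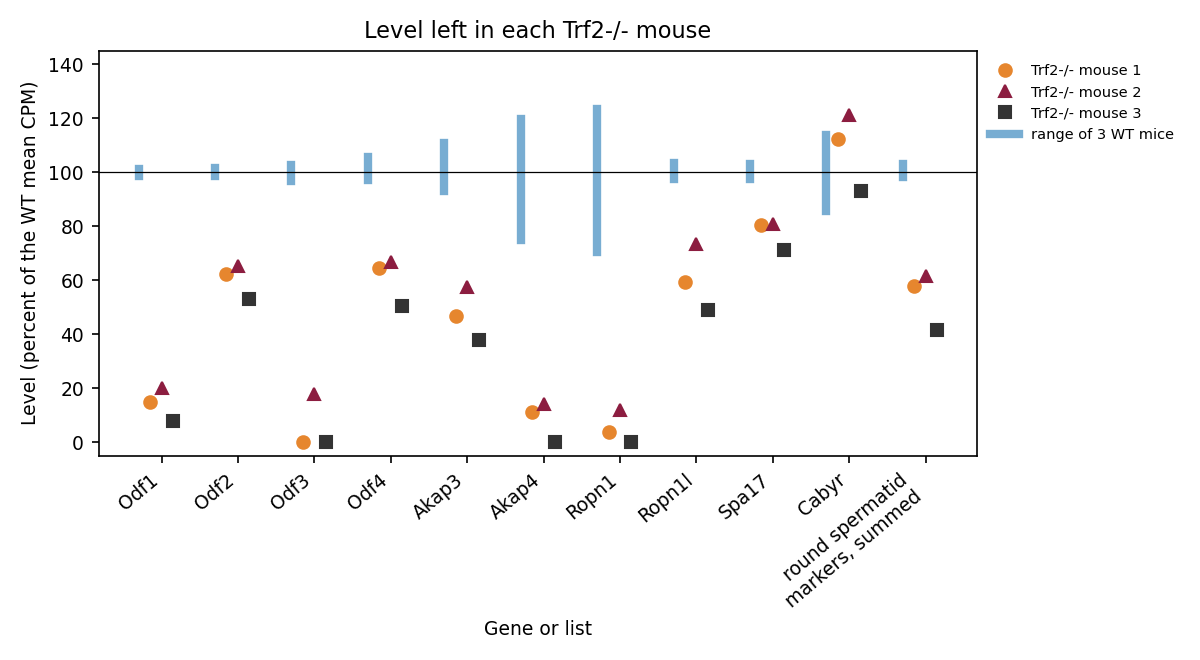
Level of each member, and the summed level of 8 round spermatid markers, in each Trf2-/- mouse as a percentage of the WT mean CPM, with bars for the range of the WT mice. Trf2-/- mouse 2 keeps the most in all 10 members, and Odf1 stays at 15.1%, 19.9% and 8.00% in mice 1, 2 and 3.

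Levels per length in WT spanned 1628-fold between members. The order of WT CPM per kilobase was Ropn1l (503 ± 16.2), Spa17 (281 ± 7.64), Odf2 (205 ± 2.90) and Odf4 (108 ± 5.36), followed far below by Akap3 (4.11 ± 0.395), Odf1 (2.14 ± 0.0293), Cabyr (1.63 ± 0.231), Ropn1 (1.11 ± 0.299), Akap4 (0.698 ± 0.159) and Odf3 (0.309 ± 0.00945), all SD with n = 3. Among neighbours in that order, Ropn1 and Akap4 had overlapping mice, and the other neighbours did not. In Trf2-/- testis the first 4 kept their order, at 305 ± 61.5, 217 ± 15.5, 123 ± 13.3 and 65.4 ± 9.55 CPM per kilobase. Cabyr (1.78 ± 0.236) overlapped Akap3 (1.95 ± 0.402) there and stood above Odf1 (0.307 ± 0.128). Across the members, the WT level per length and the log2 fold change had a Spearman rho of 0.65 (n = 10 genes, as a description, since the genes share their libraries). Akap4, Odf1, Odf3 and Ropn1, all low in WT, passed the filter on low counts through their WT libraries alone, which favours a positive rho.

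A pair of genes from each role, 1 with a higher WT level per length than the other, was compared within each mouse, on the log2 ratio of CPM with 0.5 counts added. The log2 ratio of Akap4 to Akap3 was -2.63 ± 0.25 in WT and -5.47 ± 1.58 in Trf2-/- mice, a difference of -2.84. That of Odf1 to Odf2 went from -8.77 ± 0.04 to -10.82 ± 0.43, a difference of -2.05. That of Ropn1 to Ropn1l went from -8.73 ± 0.46 to -12.03 ± 0.84, a difference of -3.29. Akap4, Odf1 and Ropn1 passed the filter on low counts through their WT libraries alone, so a higher ratio was hardly open to these pairs. The ratios restate the fold changes above and add no separate support. In all 3 pairs every Trf2-/- mouse had a lower ratio than every WT mouse. The exact two-sided permutation p was 0.1 for each, also after adjustment over the 3 pairs, which is the smallest that 3 mice against 3 can give. Leaving out each mouse in turn gave differences of -3.30 to -1.92, of -2.25 to -1.82 and of -3.74 to -2.91, in the same order of pairs, and the value of -1.92 for Akap4 to Akap3 was that without Trf2-/- mouse 3, which had no Akap4 count.

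Trf2-/- mouse 3 had the lowest level of the 3 Trf2-/- mice in 9 of the 10 members, with Odf3 tied at 0 in mice 1 and 3, and mouse 2 had the highest in all 10. Mouse 3 was the lowest in 37.5% of all genes tested and in 80.9% of the 727 down-regulated genes, while mouse 2 was the highest in 30.1% and 71.0%. Round spermatid markers were mostly lower too. Of 8, 7 were tested, 6 were lower at an adjusted p under 0.05 and 5 were down-regulated, beside 20.2% and 4.3% of all genes. Of those down-regulated, Acrv1, Catsper3, Catsper4 and Izumo1 passed the filter on low counts through their WT libraries alone. A difference upwards was thus not open to these genes. Spaca1, with a log2 fold change of -0.22 (adjusted p 0.217 in edgeR's test), did not pass. The median log2 fold change of the 7 was -1.57. The 8 summed to between 74.1 and 77.6 CPM in WT mice and to between 31.3 and 46.5 CPM in Trf2-/- mice. As a share of the WT mean, that sum was 57.9%, 61.7% and 41.5% in Trf2-/- mice 1, 2 and 3, the same order as in most members. Acr, an acrosomal protease gene, made up 74.6% of the WT sum, and the mean sum of the other 7 in Trf2-/- testis was 49.5% of WT. The summed level of 7 pachytene spermatocyte markers was 84.5%, 86.2% and 75.1% of the WT mean in the same mice. At an adjusted p under 0.05, 5 markers were lower and 2 higher, beside 20.2% and 11.2% of all genes. Of the 7, 2 were down-regulated, Ccna1 at a log2 fold change of -1.63 and Pou5f2 at -1.40, beside 4.3% of all genes. Ldhc, at -0.70, had the largest drop in CPM of the 7, with means of 2277 in WT and 1405 in Trf2-/- testis. The fall of the sum thus rests on Ldhc more than on any other marker. The 2 higher were Sycp1 at a log2 fold change of 0.29 and Sycp3 at 0.24. The part of these cell populations in the members' results was not tested.

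Elongating spermatid markers were near 0 in both genotypes. Prm2, Prm3, Tnp1 and Smcp, which encode proteins of late chromatin packing and of the mitochondrial capsule, had at most 4 counts in any mouse, and Prm2, Prm3 and Smcp had 0 in every Trf2-/- mouse. They summed to between 0.139 and 0.383 CPM in WT and between 0.0396 and 0.0632 CPM in Trf2-/- testis. Spermatogonial markers summed to between 174 and 182 CPM in WT and between 190 and 245 CPM in Trf2-/- mice, with 1 of 6 higher, and Sertoli cell markers to between 1432 and 1578 and between 1679 and 1871 CPM, with 4 of 7 higher at an adjusted p under 0.05, beside 11.2% of all genes. Macrophage markers summed to between 142 and 165 CPM in WT and between 160 and 319 CPM in Trf2-/- mice, the highest being mouse 1, with 3 of 5 higher. Sums ran from 181 to 359 and from 184 to 325 CPM for Leydig cell markers, with 1 of 6 higher, and from 269 to 345 and from 338 to 389 CPM for peritubular cell markers, with 1 of 4 higher. All these counts of higher markers are at an adjusted p under 0.05, beside 11.2% of all genes. No spermatogonial, Sertoli cell, macrophage or peritubular cell marker had a log2 fold change under 0, while 2 of 6 Leydig cell markers did.

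**Figure D4:**
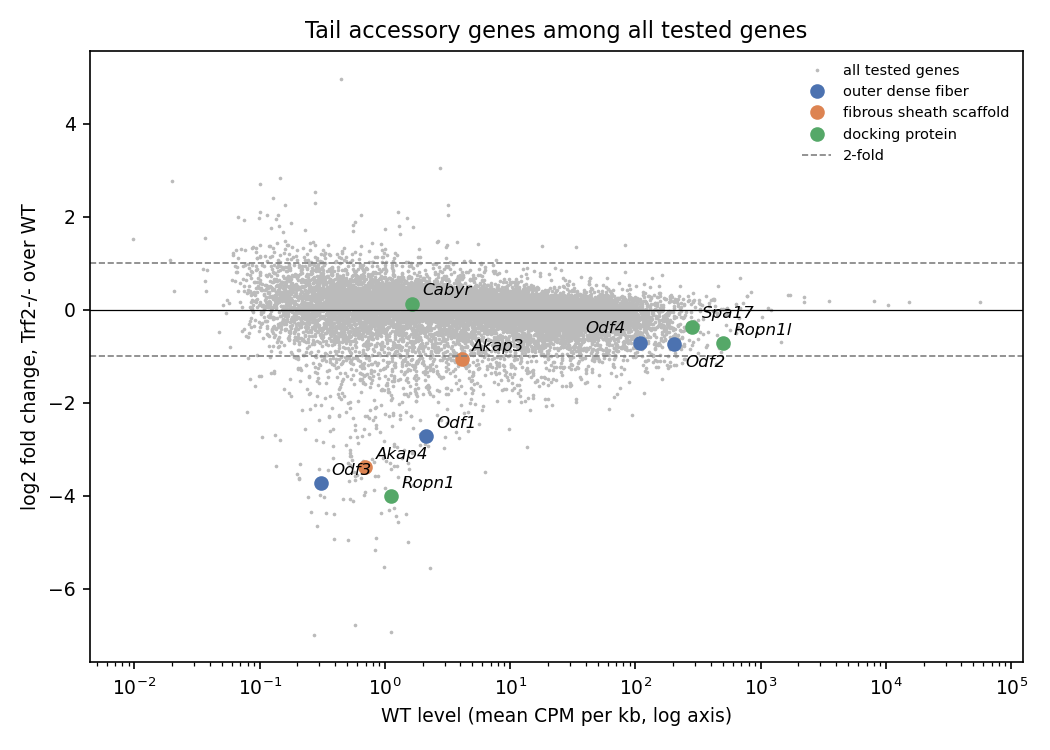
Log2 fold change, Trf2-/- over WT, against the WT level (mean CPM per kilobase, log axis) of all 16924 genes tested, with the members coloured by role. Ropn1, Odf3, Akap4 and Odf1 lie among the lowest fold changes, with 25, 32, 51 and 96 genes lower, while Cabyr lies within the bulk of the genes.

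Other genes of the tail accessory structures and their kinase were taken from a list of 27, of which 26 are in the table and 24 were tested. Down-regulated were 6, beside 4.3% of all genes, and 13 were lower and 1 higher at an adjusted p under 0.05, beside 20.2% and 11.2%, with a median log2 fold change of -0.22. The 6 were among the 18 tail accessory genes tested, whose median was -0.43, and 12 of those 18 were lower. Fscb, Gapdhs, Odf3l1 and Oaz3, 4 of the 6, passed the filter on low counts through their WT libraries alone, so that a difference upwards was not open to them. The 6 protein kinase A subunit genes tested had a median of 0.04, with 1 lower and 1 higher, counts near the shares of all genes. Neither call was stable. Prkacb, a catalytic subunit gene with a log2 fold change of 0.18 and an adjusted p of 0.0467 in edgeR's test, had an adjusted p from 0.00788 to 0.171 over 12 alternatives and passed in 3 of them. Prkaca, the other catalytic subunit gene, had -0.24 (adjusted p 0.0286) and passed in 7 of 12, with an adjusted p of 0.117 when scaled by library size alone.

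Fscb, whose product binds CABYR in the fibrous sheath, had 18, 17 and 28 counts in WT and 2, 0 and 1 in Trf2-/- mice. By pooled counts it was 17.9-fold lower (exact interval 5.84 to 88.9). Its log2 fold change of -4.04 (SE 0.68, adjusted p 0.00251 in edgeR's test) was -4.79 without Trf2-/- mouse 1. Cabyr, its binding partner's gene, had 0.13 and did not pass the test. Gapdhs, the glycolytic enzyme fixed to the sheath, had 24, 38 and 19 counts against 1, 2 and 1, with a log2 fold change of -3.99 (SE 0.48, adjusted p 0.000707).

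Odf3l1, a relative of Odf3, had 16, 20 and 13 counts in WT and 1, 4 and 1 in Trf2-/- mice. Its log2 fold change was -2.73 (SE 0.48, adjusted p 0.00312 in edgeR's test), with -3.60 without Trf2-/- mouse 2 and -2.31 without Trf2-/- mouse 1. Oaz3, the germ cell antizyme of the polyamine pathway, had 46, 48 and 36 counts against 10, 17 and 10 and an adjusted p of 0.0025. Tssk4, a kinase that phosphorylates Odf2, had a log2 fold change of -1.15 (SE 0.25, adjusted p 0.00844), and -0.96 without Trf2-/- mouse 1. Ccdc42, a coiled-coil protein needed for the tail, had 45.2, 46.0 and 44.8 CPM in WT and 22.9, 27.4 and 14.6 CPM in Trf2-/- mice. Its log2 fold change of -1.05 (SE 0.17, adjusted p 0.00224) was -0.84 without Trf2-/- mouse 3 and -0.96 when scaled by library size alone, both short of 2-fold.

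The other genes high in WT were lower by less or did not pass. Crisp2, a cysteine-rich protein of acrosome and fibers, went from 940 to 530 CPM, with a log2 fold change of -0.83 (SE 0.13, adjusted p 0.00167 in edgeR's test). Tcp11 had -0.78 (adjusted p 0.00123), Tsga10 -0.34 (adjusted p 0.00483), Spag5, which binds Odf1, -0.23 (adjusted p 0.00534) and the porin gene Vdac3 -0.22 (adjusted p 0.0173, passing in 7 of 12 alternatives). Fsip2, of the fibrous sheath, had -0.22 (adjusted p 0.119) and Prkar1a, the regulatory subunit gene, -0.01 (adjusted p 0.901). Akap14 with 7, 7 and 2 counts against 0, 1 and 0 and Odf3b with 7, 6 and 3 against 8, 5 and 7 were below the filter.

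**Figure D5:**
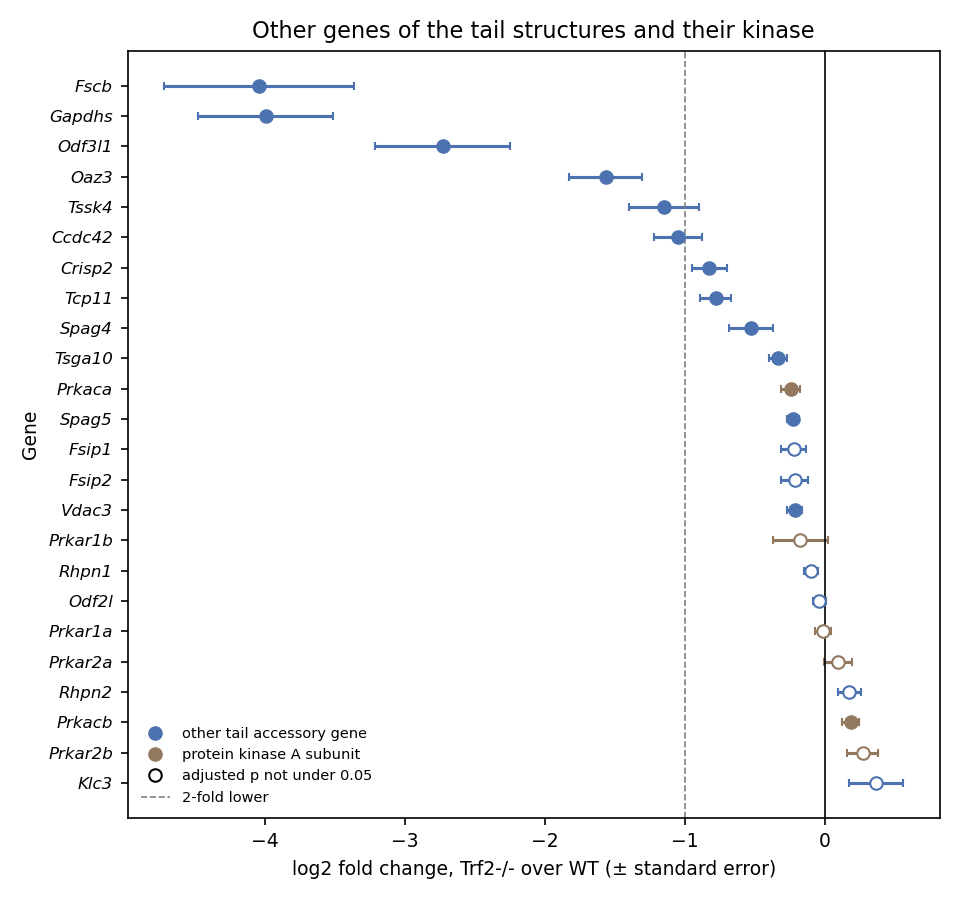
Log2 fold change with bars of 1 standard error for the 24 tested genes among the other tail accessory and protein kinase A genes, with open circles where the adjusted p was not under 0.05. They run from -4.04 for Fscb to 0.37 for Klc3, and 6 lie beyond the 2-fold limit.

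The genes closest to Akap4 and Odf1 in pattern were sought among non-members with a mean of at least 1 CPM. Likeness was the root mean square distance of log2 CPM (0.05 CPM added, centred on the WT mean) over the 6 mice. For Akap4 they included Ddi1 at a distance of 0.274 and Prss40 at 0.404. Ddi1 had 78, 63 and 49 counts in WT and 7, 12 and 0 in Trf2-/- mice, which like Akap4 had no count in Trf2-/- mouse 3. For Odf1 they were 1700108N11Rik at 0.155, Gm6583 at 0.187 and Spata20 at 0.221. Spata20 had 510, 394 and 320 counts in WT and 81, 94 and 19 in Trf2-/- mice.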

How the data were processed

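RNA was sequenced as single-end reads from stranded, ribosome-depleted libraries, 3 mice per genotype. According to the submitters' processing notes, CASAVA 1.8.2, TopHat2 2.0.10, Bowtie2 2.1.0, HTSeq 0.5.4p3 and DESeq2 1.0.19 were used with mm9. The authors deposited raw read counts per gene, which were used. Their 12 normalized columns were not. The strand setting and the annotation release are not given in the sources used here, so reads of overlapping genes cannot be told apart.

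Columns were assigned to mice by genotype and replicate number. Genes were filtered with filterByExpr, leaving 16924 genes with 99.9% of the counts, and tested with edgeR 4.0.16 in R 4.3.3 (TMM, glmQLFit, glmQLFTest). Standard errors were derived from the fold change and the F statistic. The script was tested on simulated data. Exact intervals of pooled count ratios (95%, Clopper-Pearson) cover counting error only. Depth limits the precision of Odf1, Odf3, Akap4 and Ropn1.

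The members and all lists were chosen with earlier results of these data known. Named were every member, listed tail genes that were called, the 8 others highest in WT CPM per kilobase, Tbpl1, and the 3 genes nearest in pattern to Akap4 and to Odf1, of which 1 is not reported here. A few more are named as count, marker or range. Alternatives were DESeq2 1.42.0 size factors or Wald test, library size, other filters, thresholds, a replicate block and leaving out each mouse. The leave-out of the pair ratios was added after seeing the data.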

Additional observations from a re-analysis of the deposited data

How the results depend on the processing

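The call of 5 down-regulated members ranged from 4 to 5 when each mouse was left out, and was 4 with library size alone, Akap3 being the one lost each time. It was 5 with the replicate block, with DESeq2 size factors, with the DESeq2 Wald test, without the filter beyond 1 count and at an adjusted p under 0.01. With no fold threshold it was 9. Requiring at least 10 counts in every mouse removed Akap4, Odf1, Odf3 and Ropn1 from the test, leaving 1 down-regulated member and 5 members with an adjusted p under 0.05 of 6 tested. The same filter left 3 of the other tail genes down-regulated. No member was up-regulated under any of these settings. Replicate numbers are shared by the genotypes, and the labels do not say whether same-numbered mice were paired. Deviations of same-numbered mice had correlations of -0.0973, -0.0313 and -0.102, which gave no sign of pairing but cannot exclude it. The replicate block gave 9 members with an adjusted p under 0.05 and 6 down-regulated other tail genes, and changed none of these calls. Without a fold threshold, the other tail genes lower at an adjusted p under 0.05, 13 as reported, numbered from 10 to 14 and those higher from 0 to 3 over the alternatives, a count added after seeing the data. Spag4 (0.0694) and Prkacb (0.0619) lost an adjusted p under 0.05 with the block. Scaling by library size alone moved the median log2 fold change of all genes from 0.04 to 0.13. The log2 fold change of Cabyr stayed between 0.03 and 0.23 over all alternatives, with adjusted p from 0.311 to 0.917 in the refitted models.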
